A study of Mus musculus with 18 samples.

Results

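HC and CC mice carry the same C57BL/6J mitochondrial DNA (mtDNA) under different nuclear genomes, and the fragments of mitochondrial tRNA-arginine (mt-TR) that their livers held were compared. In the letter code of the strains the nuclear genome comes first and the mtDNA second, with C for C57BL/6J and H for C3H/HeN. CC is wild-type C57BL/6J. HC is a mitochondrial-nuclear exchange (MNX) strain, made by pronuclear transfer, with a C3H/HeN nuclear genome on C57BL/6J mtDNA. The series holds 18 female liver libraries of 6 strains, and the 6 libraries of HC and CC were used here, 3 of each, chosen by strain label alone. All mice were healthy adults. Per the methods, MNX mice were bred in the authors' colony and wild-type mice were purchased, and RNA was pooled before the libraries were made, so the number of animals behind a library was not used here. Nuclear genome, MNX status and origin of the mice therefore change together between HC and CC and cannot be told apart. The values are counts of reads per unique mt-TR sequence with amplification duplicates removed by molecular identifiers, and since the table holds no other RNA, neither the tissue nor the nuclear strain could be checked against markers.

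Mitochondrial tRNAs are cut out of long polycistronic transcripts, receive a CCA tail that the gene does not encode, and carry amino acids to the mitochondrial ribosome. tRNA-derived fragments (tRF) are pieces of such molecules, named 5′ fragments when they begin at the first base and 3′ fragments when they keep the CCA tail. The enzymes that process, modify and cut mitochondrial tRNA are encoded in the nucleus, which makes the nuclear genome a variable of interest when the tRNA sequence is fixed.

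On mm10, mt-Tr (ENSMUSG00000064361.1) occupies positions 9808 to 9875 of chromosome M, where the plus strand encodes 68 nt as 1 exon without UTR or intron. With its tail the mature molecule of mtDNA C has 71 nt, and bases are numbered from the 5′ end. The acceptor stem is formed by nt 1 to 7 and nt 61 to 67, the anticodon stem by nt 24 to 28 and nt 36 to 40, and the T stem by nt 45 to 49 and nt 56 to 60. Every base of these stems had its Watson-Crick partner. The D arm spans nt 10 to 23, the anticodon loop nt 29 to 35 with the anticodon at nt 31 to 33, the variable loop nt 41 to 44 and the T loop nt 50 to 55. The sequences below carry the comparison, since most reads ended in one of these loops or at the tail. Capitals mark the variable loop and the T loop, and bases are written as DNA.
mature mt-TR of mtDNA C: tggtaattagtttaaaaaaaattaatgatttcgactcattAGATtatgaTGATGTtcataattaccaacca
nt 1 to 52: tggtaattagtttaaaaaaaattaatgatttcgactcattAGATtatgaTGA
nt 1 to 43: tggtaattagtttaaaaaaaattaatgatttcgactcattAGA
nt 1 to 49: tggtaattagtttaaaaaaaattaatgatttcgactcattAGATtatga
nt 11 to 52: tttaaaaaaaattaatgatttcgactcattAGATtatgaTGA
nt 14 to 71: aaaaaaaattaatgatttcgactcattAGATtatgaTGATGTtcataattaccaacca
nt 29 to 71: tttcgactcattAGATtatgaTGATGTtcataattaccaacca
The end at nt 52 lies inside the T loop, between positions 9859 and 9860 of chromosome M. The end at nt 43 lies in the variable loop, between 9850 and 9851, and that at nt 49 falls after the 5′ strand of the T stem, between 9856 and 9857.

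The CC libraries held 15335, 17436 and 23805 reads of 40 to 69 nt, and the HC libraries held 733, 1547 and 7903. Every HC library was thus shallower than every CC library. In bulk tissue, fewer cells of a type and less RNA per cell cannot be told apart, and counts of a length class do not show how much mt-TR a liver held. All values below are therefore shares of the reads in a library's column. A fragment without reads could make up as much as 0.409% of HC replicate 1, 0.194% of replicate 2 and 0.0380% of replicate 3, taking 3 reads as the limit, against 0.0126% to 0.0196% in CC. Of 525 fragments that could be formed from mt-TR at these lengths, 378 had reads in at least 1 of the 6 libraries.

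The most abundant fragment was the same in the 3 CC libraries and differed among the 3 HC libraries. In CC the fragment from nt 1 to 52 was the most abundant in every library. In HC the first rank went to a different fragment each time. It was the CCA-ended fragment from nt 29 to 71 in replicate 1, with 41 of 733 reads, the 5′ fragment from nt 1 to 43 in replicate 2, with 516 of 1547, and the fragment from nt 1 to 52 in replicate 3, with 2657 of 7903. HC replicate 1 stands apart from the other 5 libraries in several measures, so differences without it are given beside those that it moves most.

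**Figure D1:**
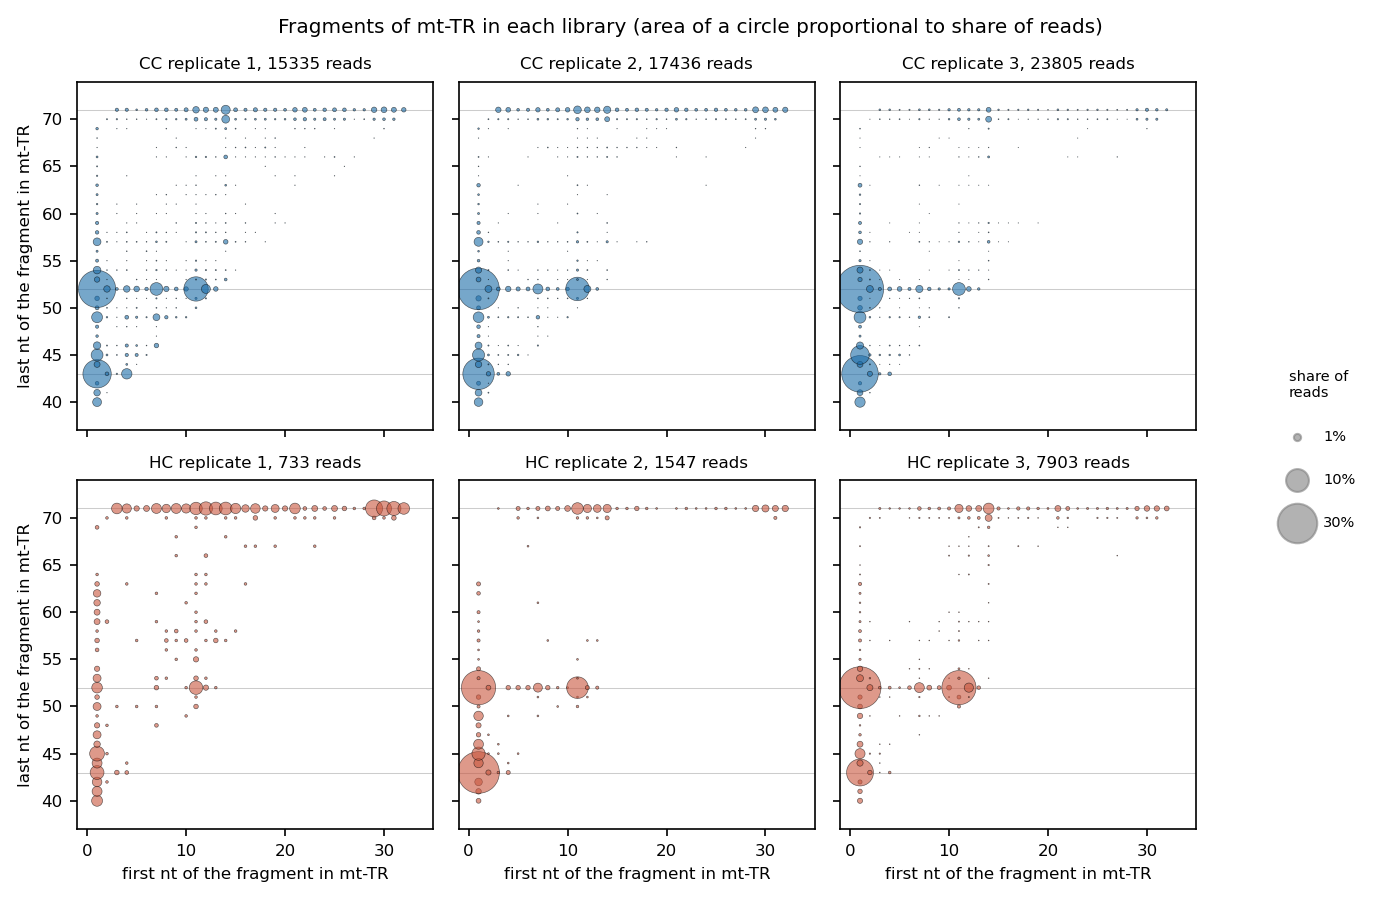
Each circle is a fragment of mt-TR, placed by its first nt (x axis) and last nt (y axis), with an area proportional to its share of the reads in that library; CC libraries are in the upper row and HC libraries in the lower. The largest circles sit at nt 1 to 52 and nt 1 to 43 in the CC libraries and HC replicate 2, and at nt 1 to 52 and nt 11 to 52 in HC replicate 3. In HC replicate 1 reads spread along the line of CCA-ended fragments at nt 71.

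Ends were compared first. Reads ending at nt 52, in the T loop, made up 46.9%, 49.9% and 50.1% in CC, and 6.96%, 35.8% and 62.4% in HC replicates 1, 2 and 3. CC was narrow, while HC lay on both sides of it. The means were 35.1% ± 27.7 in HC and 48.99% ± 1.78 in CC (SD, n = 3 each), a difference of -13.9 percentage points that did not exceed the spread between libraries (two-sided exact permutation test, p = 0.6). Without HC replicate 1 the difference was 0.105 points. With 3 libraries against 3 these tests cannot give a p below 0.1, and adjusted p values are Benjamini-Hochberg values over the 16 measures of starts, ends and lengths, of which the lowest was 0.914.

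Ends at nt 43, in the variable loop, also spread on both sides of CC. They made up 17.8%, 19.9% and 26.5% in CC, against 4.37%, 34.3% and 14.4% in HC. The difference of means was -3.71 points (p = 0.8 by exact permutation test, adjusted p = 0.914) overall and 2.96 without HC replicate 1. HC replicate 2 was the highest of the 6 libraries at nt 43 and HC replicate 3 the highest at nt 52.

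Reads with the complete CCA tail, ending at nt 71, averaged 25.5% ± 23.8 in HC and 7.99% ± 4.92 in CC (SD, n = 3 each). By library they were 10.6%, 11.1% and 2.31% in CC, and 52.9%, 13.4% and 10.2% in HC. The mean of HC was carried by replicate 1 (95% Wilson interval 49.3 to 56.5), and the other HC libraries lay next to CC replicates 1 and 2. The difference was 17.5 points (p = 0.3 by exact permutation test, adjusted p = 0.914) and 3.79 without HC replicate 1. All 3 HC libraries lay above the CC mean, and CC replicate 3 was the lowest of the 6. Reads lacking only the last base of the tail, ending at nt 70, averaged 2.04% ± 0.928 in HC and 2.42% ± 1.07 in CC, and overlapped.

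The end at nt 49, where the 5′ strand of the T stem closes, was the one end among the 7 tested at which the groups did not overlap. It made up 3.98%, 2.69% and 3.02% in CC, and 0.273%, 1.87% and 0.671% in HC. Every HC library lay below every CC library, 1 of the 16 measures (6.25%) to do so and none the reverse (0%), with 2, 29 and 53 reads in HC replicates 1, 2 and 3. Means were 0.939% ± 0.834 and 3.23% ± 0.668 (SD, n = 3 each), a difference of -2.29 points (exact permutation test, p = 0.1, adjusted p = 0.914). Leaving out any 1 library kept the difference between -2.76 and -1.92. Over all end positions with reads, 32 in number, HC was below CC without overlap at 2 of them (6.25%), nt 49 and nt 54, and above at 1 (3.12%), nt 42, so a position without overlap is not rare in these data. At nt 54, the fifth base of the T loop, the shares were 1.42%, 0.964% and 0.798% in CC and 0.546%, 0.323% and 0.696% in HC. At nt 42, in the variable loop 1 nt short of the common end, they were 0.261%, 0.321% and 0.218% in CC and 1.91%, 1.099% and 0.329% in HC. The positions nt 54 and nt 42 were named after their values were seen. The 7 tested ends, nt 49 among them, were also chosen with earlier results of these data known.

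Grouped by the arm of the tRNA in which a read ended, the T loop took 50.6%, 52.7% and 52.4% of reads in CC and 13.0%, 37.5% and 65.7% in HC. The variable loop took 19.7%, 22.0% and 28.2% in CC and 10.2%, 37.8% and 15.9% in HC. Together with the CCA tail, at 14.6%, 13.2% and 4.04% in CC and 56.2%, 14.4% and 12.6% in HC, these 3 regions held most reads of all 6 libraries. What differed between the HC libraries was which of the 3 came first. It was the tail in replicate 1, the variable loop, narrowly ahead of the T loop, in replicate 2 and the T loop in replicate 3.

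Among starts, the mature 5′ end at nt 1 was the most frequent in all 6 libraries. It opened 56.7%, 66.7% and 86.2% of reads in CC and 29.1%, 70.01% and 56.3% in HC. The means of 69.9% ± 15.0 and 51.8% ± 20.8 (SD, n = 3 each) differed by -18.1 points for HC minus CC (p = 0.4 by exact permutation test, adjusted p = 0.914). It was -6.74 without HC replicate 1. The groups overlapped, with HC replicate 2 above both CC replicates 1 and 2.

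The second start, at nt 11 in the D arm, opened 13.1%, 12.6% and 3.62% of reads in CC and 9.28%, 12.02% and 24.6% in HC. Its highest share was that of HC replicate 3 and its lowest that of CC replicate 3. The difference of 5.57 points lay within the spread (exact permutation test, p = 0.6, adjusted p = 0.914), and was 0.900 without HC replicate 3. Starts at nt 7, the last base of the acceptor stem's 5′ strand, averaged 2.59% ± 0.603 in HC and 3.03% ± 1.82 in CC, and those at nt 14, in the A run of the D arm, 2.88% ± 1.09 and 2.33% ± 1.31. At nt 29, the first base of the anticodon loop, starts made up 0.691%, 0.763% and 0.176% in CC and 5.87%, 0.776% and 0.481% in HC. The difference of 1.83 points (exact permutation test, p = 0.4, adjusted p = 0.914) came down to 0.0848 without HC replicate 1. In that library 17.2% of reads began in the anticodon loop, against 0.790% to 3.43% in the other 5.

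Over all 32 start positions with reads, HC exceeded CC without overlap at 2 (6.25%), nt 13 and nt 31, and was below at 1 (3.12%), nt 2. Starts at nt 2, the second base of the acceptor stem, made up 1.34%, 1.68% and 1.73% in CC and 0.819%, 1.099% and 1.27% in HC. Those at nt 13, in the D arm, made up 1.141%, 0.929% and 0.353% in CC and 3.82%, 1.49% and 1.151% in HC. There HC replicate 3 lay barely above CC replicate 1. Starts at nt 31, the first base of the anticodon, made up 0.606%, 0.533% and 0.218% in CC and 4.23%, 0.905% and 0.683% in HC. These are small classes, of 6 to 100 reads for each HC library, and nt 2, nt 13 and nt 31 too were named after their values were seen.

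**Figure D2:**
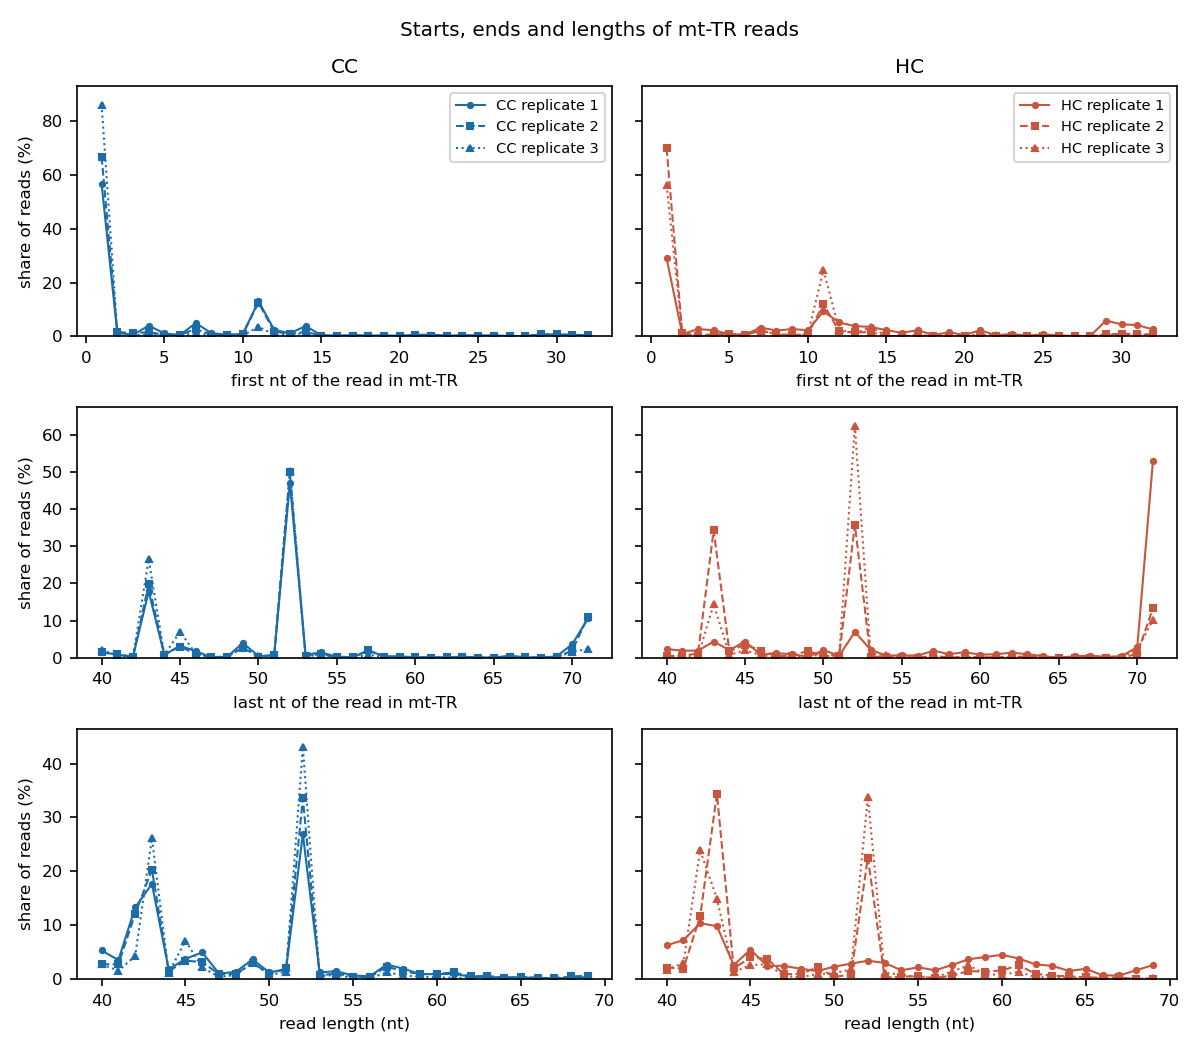
Share of the reads of a library (y axis, %) by first nt, last nt and length of the read (x axis, nt) for the 3 CC libraries on the left and the 3 HC libraries on the right, with a line for each replicate. The CC lines run close together at nt 52, from 46.9% to 50.1%, whereas the HC lines there run from 6.96% to 62.4%.

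Mean read length was 47.96, 48.5 and 48.2 nt in CC and 50.9, 47.4 and 47.9 nt in HC. The group means differed by 0.511 nt (exact permutation test, p = 1.0, adjusted p = 1.0) and by -0.565 nt without HC replicate 1. Reads of 52 nt, which include the fragment from nt 1 to 52, made up 26.9%, 33.5% and 43.04% in CC and 3.41%, 22.6% and 33.8% in HC. Reads of 60 to 69 nt made up 1.55% to 5.49% in CC and 3.69% to 22.5% in HC, where replicate 1 was highest and replicate 3 lowest. Of 30 lengths, HC was below CC without overlap at 1 (3.33%), 49 nt, and above at 1 (3.33%), 61 nt, both named after their values were seen. Reads of 49 nt made up 3.65%, 2.9995% and 3.096% in CC and 1.501%, 2.198% and 0.936% in HC, and include the fragment from nt 1 to 49. Reads of 61 nt made up 0.959%, 1.25% and 0.260% in CC and 3.82%, 2.59% and 1.38% in HC, and include the CCA-ended fragment that begins at nt 11.

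The evenness of the libraries was measured by the effective number of fragments, which is the number of equally abundant fragments that would give the same Shannon entropy. It was 26.7, 17.6 and 8.88 in CC and 65.3, 13.8 and 13.0 in HC. HC replicates 2 and 3 thus lay inside the range of CC, and the difference of means, 12.9 (exact permutation test, p = 0.7, adjusted p = 0.914), was -4.35 without HC replicate 1. At an equal depth of 733 reads, 102.4, 84.6 and 60.1 fragments would be expected in CC and 132, 69.8 and 72.3 in HC. The shallowest library was therefore also the most diverse one at matched depth, and its 3 most abundant fragments held 14.2% of its reads, against 53.5% to 75.4% in the other 5.

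To compare ends without the influence of the CCA-ended class, the fragments from nt 1 to 52 and from nt 1 to 43 were set against each other, since both share the 5′ end and differ only in where the molecule stops. Per read of the shorter fragment, CC held 1.72, 1.75 and 1.68 reads of the longer one, with 95% intervals of 1.64 to 1.81, 1.68 to 1.83 and 1.62 to 1.73 that overlap each other. HC held 0.593 (0.322 to 1.09), 0.676 (0.591 to 0.775) and 2.42 (2.26 to 2.60). No HC interval touched a CC interval, but HC replicates 1 and 2 lay below CC and replicate 3 above, so the groups did not differ in one direction. On the log2 scale the means were -0.01 ± 1.12 in HC and 0.78 ± 0.03 in CC (SD, n = 3 each), a difference of -0.79 (exact permutation test, p = 0.4, adjusted p = 0.914). It was -0.42 without HC replicate 1 and -1.44 without HC replicate 3. The intervals cover counting error only, and HC replicate 1 rests on 16 and 27 reads.

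The same held among all reads that began at nt 1. Of these, 47.0%, 49.7% and 49.9% ended at nt 52 in CC, and 7.51%, 32.2% and 59.7% in HC. Those ending at nt 43 were 27.3%, 28.4% and 29.8% in CC and 12.7%, 47.6% and 24.7% in HC. In HC replicate 1, where 213 reads began at nt 1, the most frequent end was nt 45, at the foot of the T stem, with 14.6%. That was 31 reads, against 27 at nt 43, with overlapping Wilson intervals (10.4 to 19.9 and 8.86 to 17.8). For these shares the differences of means were -15.7 points (exact permutation test, p = 0.4, adjusted p = 0.9 over 9 conditional measures) and -0.135 points (p = 1.0, adjusted p = 1.0). The former was -2.87 without HC replicate 1. The latter was 7.70 without HC replicate 1, 1.69 without HC replicate 3 and 0.508 without CC replicate 3.

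Among reads that ended at nt 52, the share beginning at nt 11 was 24.3%, 21.3% and 6.25% in CC and 50.98%, 25.1% and 35.96% in HC, without overlap between the groups. Of the 9 conditional measures it was the 1 in which HC lay above CC without overlap (11.1%), and in none did it lie below (0%). The closest values, HC replicate 2 and CC replicate 1, had overlapping Wilson intervals (21.7 to 28.9 and 23.3 to 25.3). The highest value, that of HC replicate 1, rests on 26 of 51 reads, with an interval of 37.7 to 64.1. Reads ending at nt 52 numbered 554 and 4930 in HC replicates 2 and 3, and 7199, 8700 and 11934 in CC. The means of 37.3% ± 13.0 and 17.3% ± 9.66 (SD, n = 3 each) differed by 20.1 points (p = 0.1 by exact permutation test, adjusted p = 0.9), and leaving out any 1 library kept the difference between 13.2 and 26.2. The share beginning at nt 1 was 56.7%, 66.5% and 85.7% in CC and 31.4%, 63.0% and 53.9% in HC, a difference of -20.2 points (p = 0.2 by exact permutation test, adjusted p = 0.9) with overlap between the groups. It was -11.2 points without HC replicate 1. Starts at nt 7 among these reads averaged 4.43% ± 1.41 in HC and 4.17% ± 2.34 in CC.

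Among CCA-ended reads, the starts overlapped. The share beginning at nt 11 was 7.78%, 10.2% and 7.26% in CC and 5.67%, 19.3% and 12.8% in HC. At nt 14 the shares were 14.9%, 9.002% and 19.4% in CC and 5.93%, 9.66% and 21.8% in HC. At nt 29, the first base of the anticodon loop, they were 5.43%, 6.00% and 4.54% in CC and 10.6%, 5.80% and 3.61% in HC. The differences of 4.17, -2.001 and 1.33 points lay within the spread (exact permutation tests, p = 0.4, 0.8 and 0.8). They were 7.64, 1.26 and -0.621 points without HC replicate 1.

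**Figure D3:**
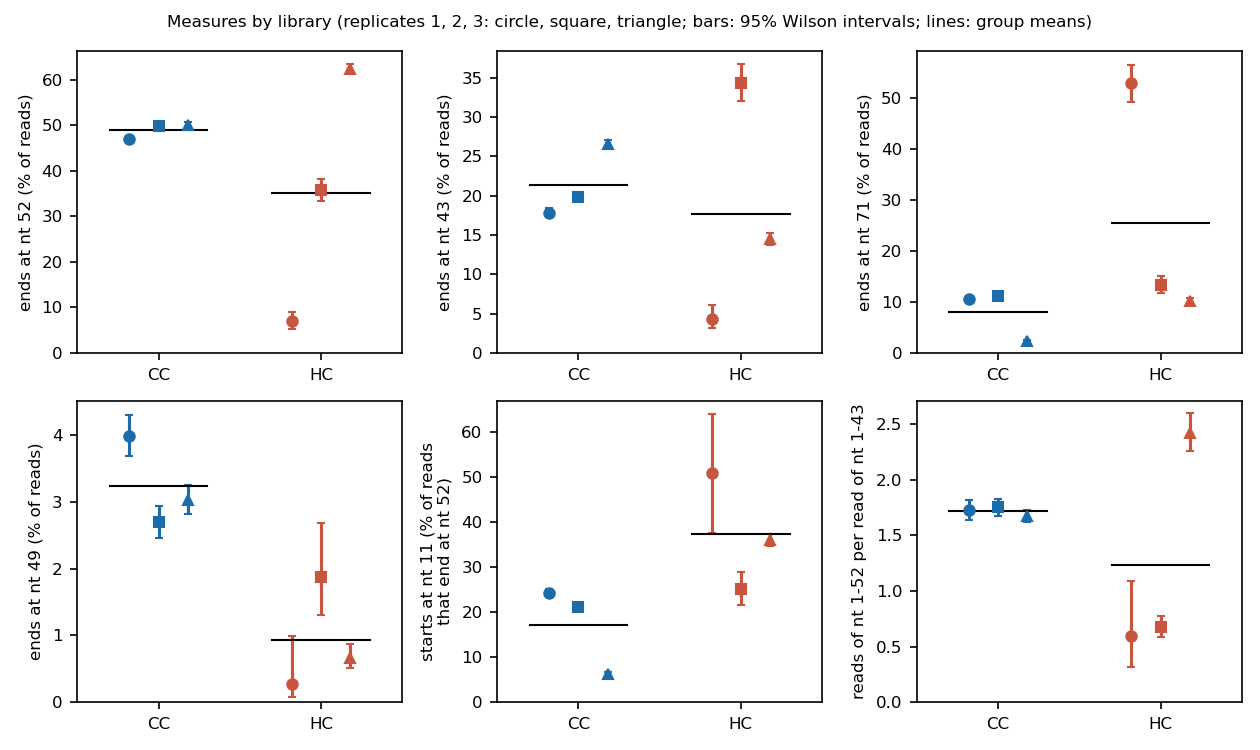
Each point is a library (CC in blue, HC in red; replicates 1, 2 and 3 as circle, square and triangle) with its 95% Wilson interval, and black lines are group means; the y axes give percent of reads or, in the last panel, reads of nt 1 to 52 per read of nt 1 to 43. Ends at nt 49 and starts at nt 11 among reads that end at nt 52 do not overlap between groups, while in the last panel the CC points lie at 1.68 to 1.75 and the HC points at 0.593 to 2.42.

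The 10 most abundant fragments by mean share over the 6 libraries were the same as those on the published list for mtDNA C. That list was drawn up on these libraries, so it is not independent evidence. Of the 10, 8 overlapped between groups. The fragment from nt 1 to 52 made up 26.6%, 33.2% and 42.98% in CC and 2.18%, 22.6% and 33.6% in HC. The fragment from nt 1 to 43 made up 15.4%, 18.96% and 25.7% in CC and 3.68%, 33.4% and 13.9% in HC. The third, from nt 11 to 52, lacks the 5′ strand of the acceptor stem and made up 11.4%, 10.6% and 3.13% in CC and 3.55%, 8.99% and 22.4% in HC. These 3 fragments held most of the reads in each library but HC replicate 1.

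The 2 abundant fragments whose groups did not overlap lay in opposite directions. The 5′ fragment from nt 1 to 49 made up 2.29%, 2.20% and 2.71% in CC and 0.136%, 1.75% and 0.569% in HC, lower in every HC library (edgeR adjusted p = 0.372). The CCA-ended fragment from nt 11 to 71 made up 0.822%, 1.14% and 0.168% in CC and 3.001%, 2.59% and 1.303% in HC, higher in every HC library (edgeR adjusted p = 0.366). Both begin or end at positions that also serve the most abundant fragments, at nt 1 and nt 11. The other 5 of the list, from nt 1 to 45, 7 to 52, 14 to 71, 1 to 40 and 29 to 71, overlapped, with group means from 0.448% to 4.09%.

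Fragments were next tested one by one with the quasi-likelihood test of edgeR, on the 79 fragments that passed its filter on low counts. None was called at a Benjamini-Hochberg adjusted p under 0.05 (0 of 79, 0%), with a lowest adjusted p of 0.315. At an unadjusted p under 0.05 there were 11 fragments (13.9%), 8 higher in HC (10.1%) and 3 lower (3.80%). Groups did not overlap in 14 of the 79, 7 higher in HC (8.86%) and 7 lower (8.86%). The list of 10 had 0 called, with 4 higher and 6 lower, and a median log2 fold change of -0.30, against 0.30 for all fragments tested.

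The number called depended on the scaling and the tool. With TMM in place of the table total edgeR called 4 fragments (5.06%), 1 higher and 3 lower in HC. DESeq2, which changes the scaling and the test together, called 5 (6.33%), 1 higher and 4 lower, and 4 were called by both. The median log2 fold change of all 79 moved from 0.30 with the table total to -0.27 with TMM and -0.33 with DESeq2, and the direction of the fragments with an unadjusted p under 0.05 moved with it. TMM gave 9 such fragments (11.4%), 1 higher and 8 lower, and DESeq2 gave 16 (20.3%), 5 higher (6.33%) and 11 lower (13.9%). The 4 shared fragments were those from nt 1 to 57, 7 to 49 and 14 to 57, lower in HC, and from nt 11 to 50, higher. They were small classes, and that from nt 14 to 57 was named after its values were seen. The fragment from nt 1 to 57 had 179, 269 and 128 reads in CC and 3, 3 and 15 in HC. That from nt 7 to 49 had 139, 44 and 29 in CC and 0, 1 and 4 in HC, and that from nt 14 to 57 had 63, 17 and 35 in CC and 1, 0 and 1 in HC, where the share of HC replicate 1 lay above that of CC replicate 2. The fragment from nt 11 to 50 had 10, 1 and 3 reads in CC and 3, 2 and 16 in HC.

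By the table total, these fragments and a few others stood at the top of the order without being called. Among fragments higher in HC without overlap, the smallest p values belonged to nt 11 to 50, with a log2 fold change of 3.02 ± 1.01 (SE), nt 1 to 62 (2.62 ± 1.09), nt 31 to 71 (2.17 ± 0.95), nt 13 to 71 (2.05 ± 0.93) and nt 1 to 42 (1.94 ± 0.95). Their edgeR adjusted p values ran from 0.315 to 0.343. Without HC replicate 1 the log2 fold changes were 2.66, 1.19, 0.80, 1.22 and 1.35 in the same order. Those from nt 31 to 71 and nt 13 to 71 are CCA-ended and those from nt 1 to 62 and nt 1 to 42 are 5′ fragments, so the 5 have no end and no start in common. Among fragments lower in HC without overlap, the smallest p values belonged to nt 7 to 49 (-3.15 ± 1.27), nt 1 to 57 (-2.15 ± 0.98), nt 1 to 49 (-1.52 ± 0.88), nt 3 to 52 (-1.42 ± 1.06) and nt 2 to 52 (-1.02 ± 0.94), with edgeR adjusted p values from 0.315 to 0.6254. Without HC replicate 1 the log2 fold changes of these 5 were -2.94, -2.49, -1.10, -1.14 and -0.56. Of these, nt 7 to 49 and nt 1 to 49 stop at the end at which all HC libraries lay below CC. HC replicate 1 had 0 reads of nt 7 to 49, 2 to 52 and 3 to 52, where a fragment without reads could make up 0.409%. The CC shares of nt 3 to 52 lay below that limit, at 0.157%, 0.281% and 0.185%. Those of nt 2 to 52 lay above it, at 0.809%, 0.918% and 0.912%. For nt 7 to 49, CC replicate 1 lay above it, at 0.906%, and CC replicates 2 and 3 below, at 0.252% and 0.122%.

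**Figure D4:**
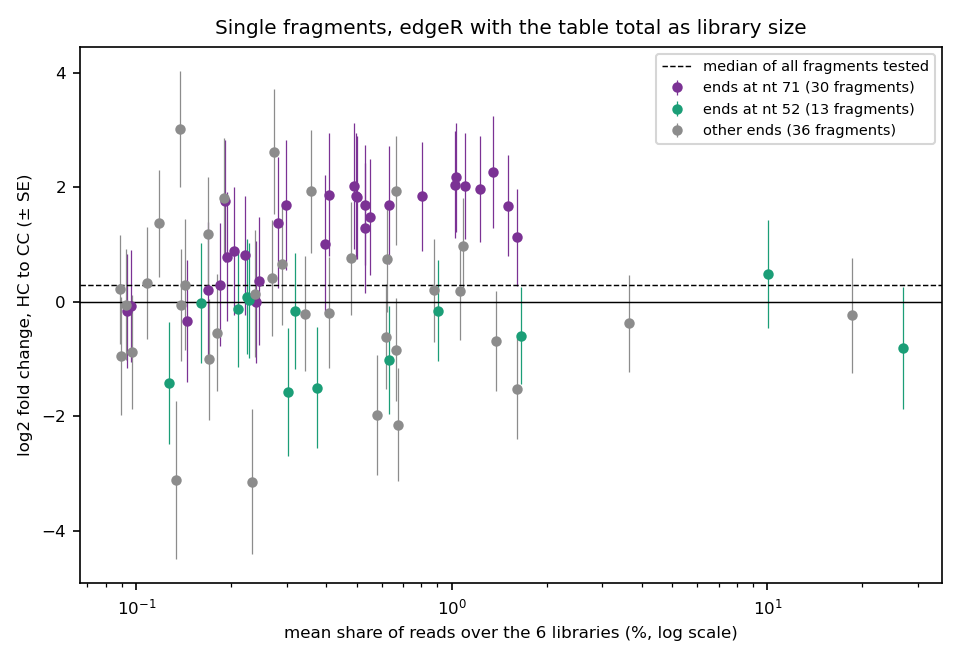
Log2 fold change of HC to CC with its standard error (y axis) against the mean share over the 6 libraries (x axis, log scale) for the 79 fragments tested, coloured by end; the dashed line is the median of all. Most CCA-ended fragments lie above 0, 26 of 30, and most fragments that end at nt 52 below it, 10 of 13, and no single fragment was called. Of all 79, 47 lie above 0 and 32 below.

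Within reads of 40 to 69 nt the 2 main classes of ends were complete in the test. All 30 CCA-ended fragments and all 13 that end at nt 52 passed the filter. Shorter pieces and the full-length molecule lie outside this window, which also ties the start of a read to its possible ends. Of the CCA-ended fragments, 26 had a positive and 4 a negative log2 fold change, with a median of 1.58, against 0.30 for all 79. Among all 79, 47 were positive and 32 negative. Of the fragments ending at nt 52, 10 were negative and 3 positive, with a median of -0.17. Without HC replicate 1 the CCA-ended class held 16 positive and 14 negative fragments and the class ending at nt 52 held 7 and 6, with medians of 0.25 and 0.02 against -0.05 for all fragments then tested. Of all those, 41 were positive and 45 negative. Without HC replicate 3 all 13 fragments ending at nt 52 were negative, with a median of -1.13. Of all 93 fragments then tested, 41 were negative, and their median was 0.36. The median of the CCA-ended class lay above that of all fragments by 1.28 with the table total, 0.94 with TMM and 0.94 with DESeq2, and by 0.30 without HC replicate 1. By sign, 21 of the 30 were positive with TMM and 20 with DESeq2, against 33 and 30 of all 79. Of the 13 ending at nt 52, 11 and 12 were negative, against 46 and 49 of all 79. Since the fragments of a class were counted in the same libraries, they are not replicates.

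The 6 libraries were then compared as whole profiles. The dissimilarity of a pair was taken as the percent of reads that would have to be moved to another fragment to make both profiles equal. Within CC it was 14.4, 22.8 and 32.6%, and within HC 33.9, 63.3 and 69.1%. Between CC and HC it averaged 40.4% and ran from 18.1%, for CC replicate 2 and HC replicate 3, to 74.1%, for CC replicate 3 and HC replicate 1. HC replicate 3 was closer to CC replicates 1 and 2, at 21.9% and 18.1%, than to either other HC library. The mean between groups exceeded the mean within groups by 1.02 points (one-sided exact permutation test over 10 splits, p = 0.4) and by 0.426 without HC replicate 1, and each fit without a CC library turned that difference negative, from -7.69 to -6.17. Profiles of the replicates within a group differed by more than counting error in all 6 pairs, so every test kept the libraries apart. Sums over a group were used only as an alternative and to describe shared fragments.

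**Figure D5:**
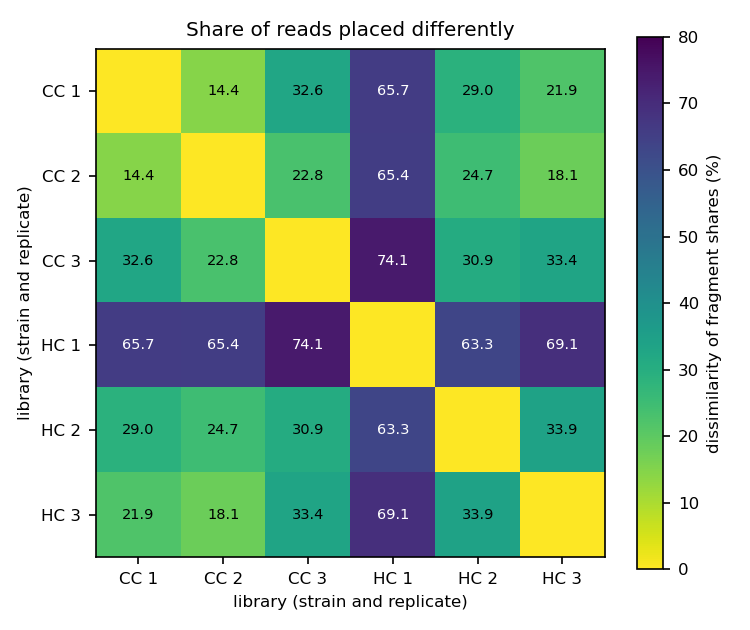
Dissimilarity of fragment shares (%, colour scale and printed values) for each pair of the 6 libraries, named by strain and replicate on both axes. Pairs with HC replicate 1 stand at 63.3% to 74.1%, and the lowest value between the strains is 18.1%.

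In the other pairs of strains that share their mtDNA, the nuclear genome was exchanged as well, with H mtDNA under H and C nuclei (HH and CH) and FVB/NJ mtDNA, letter F, under C and F nuclei (CF and FF). HC minus CC was -18.1 points for starts at nt 1, -13.9 for ends 19 nt before the mature end, which is nt 52 in mtDNA C, and 17.5 for CCA-ended reads. HH minus CH, also nuclear genome H minus C but wild type minus MNX, was -1.58, 1.49 and -1.19 points. CF minus FF, like HC minus CC an MNX minus a wild-type strain, was -37.2, -31.2 and 35.5. The libraries of these strains also spread widely. CCA-ended reads averaged 52.3% ± 23.8 in HH, 53.5% ± 13.5 in CH, 40.4% ± 27.0 in CF and 4.95% ± 1.78 in FF (SD). Depth over the whole series went down to 189 reads. Exact permutation tests of the difference between the pairs shuffled strain labels within mtDNA types over 400 arrangements. They gave p from 0.37 to 0.5 and an adjusted p of 0.5 for all 6 tests. Their reference values include any strain difference within a pair, so these tests cannot decide whether the pairs differ. Without HC replicate 1 the differences between the pairs were -5.15, -1.38 and 4.98 points against HH minus CH and 30.5, 31.3 and -31.7 against CF minus FF, each on the same side of the threshold.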

How the data were processed

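Small RNA of female mouse liver was sequenced by the authors after removal of base methylation and blocked ends, with molecular identifiers (UMIs). The table holds deposited counts, not normalized: reads of each unique mt-TR sequence in each library. Per the labels and methods, the authors extracted UMIs and removed duplicates with UMI-tools 1.1.6, trimmed with cutadapt 5.0, mapped with Bowtie 1.3.1 without gaps or mismatches to the mt-TR sequence of the strain's own mtDNA, and dropped sequences found elsewhere in mm10. All 18 columns were matched to samples, with 0 unmatched. A demethylation step and ligation of adapters can favour some fragments over others.

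Each row with reads in HC or CC was read as 1 start and 1 end on the 71 nt sequence, which equalled the GENCODE M21 mt-Tr transcript plus CCA. Depth of the HC and CC libraries was 733 to 23805 reads, and only reads of 40 to 69 nt were held. Over the whole series depth ran from 189 to 23805 reads. Shares have the column total as denominator, which is a length class and not all mt-TR reads. Intervals are 95% Wilson intervals and cover counting error only. Nothing states that libraries came from separate animals, so p values measure the spread between these libraries.

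Group means were compared by exact permutation over 20 arrangements, and fragments by the quasi-likelihood test of edgeR 4.0.16, run in R 4.3.3 beside limma 3.58.1. Column totals served as library sizes, filterByExpr as the filter on low counts, and the SE of a fold change was its size over the square root of F. DESeq2 1.42.0 and TMM were alternatives. Shares, permutations and plots came from scipy 1.17.1, pandas 2.3.3, numpy 2.4.6 and matplotlib 3.10.9 under Python 3.11.15. The permutation and edgeR code was also run on simulated data, and the outcome is not reported here. Named fragments were the 10 most abundant, the 10 the study lists, and in each direction the 5 with the smallest edgeR p without overlap between groups. The comparison, positions, lists and tests were chosen with earlier results of these data known. Single-library omission for the profile dissimilarity was added later.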

Additional observations from a re-analysis of the deposited data

Results flagged for a closer look

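The gap between an extreme library and its nearest neighbour, divided by the range, was examined for 17 measures over the 6 libraries of mtDNA C, which join HC and CC. Dixon's critical value at 95% was the limit, and chance passes it in about 1 of 20 groups. It was passed in 4 measures, each time by HC replicate 1, the library with 733 reads. Starts at nt 29 made up 5.87% there, against at most 0.776% in the others. CCA-ended reads made up 52.9%, against at most 13.4%. Mean length was 50.9 nt, against at most 48.5 nt, and the effective number of fragments was 65.3, against at most 26.7. These 4 measures share reads, and the part of the low read number in them was not tested.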

How the results depend on the processing

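No fragment was called with the table total as library size, and no omission of 1 library led to a call of a fragment. For the measures, the permutation tests of HC against CC cannot give a p below 0.1. No measure could thus pass 0.05, with all libraries or with 1 left out. For the measures, what the alternatives show is therefore direction. The number of fragments called went from 0 to 4 with TMM scaling and to 5 with DESeq2, which changes both the scaling and the test, and the cause was not tested. With all 18 libraries in one fit, without a filter, with a stricter filter and with a replicate block 0 fragments were called. Deviations of same-numbered HC and CC libraries from their group means correlated at 0.157, -0.242 and 0.234. With so few libraries in a group, these values cannot decide whether the numbers pair the libraries. With the replicate block 7 fragments had an unadjusted p under 0.05, against 11 without it, and the sign-flip tests of the measures cannot give a p below 0.25 and leave the differences as they are, so the block changed no call. Of the HC libraries, replicate 3 alone correlated best with the CC library of its own number.

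Summing the reads of a group, which gives HC replicate 3 most of the weight, turned the difference HC minus CC to 5.16 points for ends at nt 52, -0.192 nt for mean length, 0.11 for the log2 ratio of nt 1 to 52 over nt 1 to 43, 3.41 points for ends at nt 52 among starts at nt 1, -1.9999 for ends at nt 45 among them, -0.567 for starts at nt 7 among ends at nt 52 and 2.84 for starts at nt 14 among CCA ends, and moved starts at nt 11 to 12.7. Counting neighbours within 1 nt turned starts at nt 7 to 0.187 and ends at nt 70 to 17.1, the latter since that window takes in the CCA end.

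Leaving out 1 library at a time turned the direction of some differences. Ranges were -1.28 to 0.527 points for starts at nt 7, -12.0 to 2.96 for ends at nt 43, -1.81 to 0.191 at nt 45, -27.6 to 0.105 at nt 52 and -0.796 to 0.230 at nt 70, -0.565 to 1.16 nt for mean length and -4.35 to 21.8 for the effective number. Among starts at nt 1 they were -9.79 to 7.70 for ends at nt 43 and -1.47 to 4.07 at nt 45, among ends at nt 52 -0.826 to 1.499 for starts at nt 7, and among CCA ends -6.66 to 1.26 for starts at nt 14 and -0.621 to 2.86 at nt 29. Log2 fold changes ranged from -1.18 to 0.24 for nt 1 to 43, -0.41 to 0.91 for nt 11 to 52 and -0.63 to 0.18 for nt 1 to 45. The dissimilarity between less that within groups ranged from -7.69 to 15.1 points. The number of fragments with an unadjusted p under 0.05 was 1 without CC replicate 1 or 2, 5 without CC replicate 3, and 7, 14 and 21 without HC replicates 1, 2 and 3. The other differences, those for ends at nt 49 and for starts at nt 11 among ends at nt 52 included, kept their direction in every omission. The depth of HC replicates 1 and 2 limits what can be seen of any fragment under 0.409% and 0.194% of their reads.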

Other observations

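Most reads of both strains fell on fragments seen in every library. The 67 fragments seen in all 6 libraries held 94.4% of the summed HC reads and 92.0% of the summed CC reads. A fragment seen even in the library of 733 reads tends to be abundant, so high shares follow in part from this selection. HC replicate 3 gave 7903 of the HC reads. Only 14 fragments were seen in HC and not in CC, with 18 reads in all and at most 3 reads each, while 170 were seen in CC and not in HC, with 618 of 56576 reads. HC held 10183 reads in all, so the larger number on the CC side cannot be told apart from its greater depth.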
